A study of Homo sapiens with 6 samples.

Results

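MALAT1, NEAT1, TUG1, NORAD, OIP5-AS1, MIAT, JPX and FTX are long noncoding RNAs (lncRNAs), transcripts that act as RNA rather than as templates for protein. These 8 genes of the 30270 in the count table were taken by symbol, and they were selected on measured values, since their levels and their change in these libraries were known when the list was made. Their own values are therefore given as a description, with no test. All 8 were among the 23952 genes with enough reads to enter the fit.

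The study asked how gene expression in HEK 293T cells depends on TUT4 and TUT7, the enzymes that add uridines to RNA 3′ ends. HEK 293T is an embryonic kidney line that carries the SV40 large T antigen. RNA came from 3 wildtype (WT) cultures and from 3 cultures of a TENT3A/B double knockout, TENT3A/B being another name for TUT4 and TUT7 and ΔTUT4/7 the study's name for the line. Both groups are untreated HEK 293T cells, and the 3 libraries of a group are labelled as biological replicates of 1 line, so a difference between the groups is a difference between a pair of lines. The knockout line was made earlier and was a gift to the study, and whether it is 1 clone is not given in the sources used here. Ribosomal RNA was depleted and no poly(A) selection was made, so transcripts without a poly(A) tail could also be counted.

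Library totals ran from 18757228 to 33148937 estimated counts. TUT4 went against the knockout label, at 211 ± 5.08 CPM (read counts scaled to library size; mean ± SD, n = 3 throughout) in WT and 906 ± 21.4 CPM in the other group, while TUT7 was at 62.6 ± 2.17 and 26.3 ± 1.04 CPM. Counts over a whole gene do not check a deletion whose site is not given here, and the groups are called WT libraries and libraries labelled ΔTUT4/7. Of 9 HEK 293T markers all were above 1 CPM in WT, and 8 were in both groups. The exception, NEFM, was at 878 to 1110 CPM in WT and at 0 to 0.051 CPM in the libraries labelled ΔTUT4/7. The summed markers were at 1850 to 2060 CPM in WT and at 1480 to 1500 CPM in the other group. That sum covers large changes both ways. NEFL was at 339 to 364 CPM in WT and at 104 to 107 CPM in the other group, and VIM at 469 to 513 and 1240 to 1250 CPM. Of 4 fibroblast markers only COL1A1 was in the table, at 18.7 to 21.7 CPM in WT and 6.54 to 8.06 CPM in the other group, and the blood and hepatocyte markers reached at most 1.44 CPM. The part of these differences in the lncRNA values was not tested. In bulk RNA, fewer cells with a transcript and less of it per cell cannot be told apart.

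Where a lncRNA sits in the cell is tied to what it does. MALAT1 collects in nuclear speckles, bodies rich in splicing factors, and NEAT1 is the scaffold of paraspeckles, bodies that hold RNA-binding proteins and some RNAs. MIAT forms foci in the nucleus, and FTX is made from the X-inactivation centre and stays in the nucleus. NORAD and OIP5-AS1 (also called Cyrano) are mainly cytoplasmic: NORAD binds Pumilio repressors, and OIP5-AS1 carries a site that brings about decay of the microRNA miR-7. TUG1 is found on both sides of the nuclear envelope, and JPX, an activator of XIST, was left outside both classes. These classes come from textbook knowledge, and location was not measured in these libraries.

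The sequences below carry the features by which these RNAs are known. They were read from the hg38 genome along the strand of the gene. MALAT1 and the long form of NEAT1 end without a poly(A) tail: RNase P cuts them before a tRNA-like structure, and the new 3′ end folds U-rich stretches onto an A-rich tract as a triple helix. The U-rich stretches and the A-rich tract are in capitals. The MALAT1 stretch is chr11:65506024-65506116 on the plus strand and the NEAT1 stretch is chr11:65445448-65445540 on the plus strand.
MALAT1 3′ end: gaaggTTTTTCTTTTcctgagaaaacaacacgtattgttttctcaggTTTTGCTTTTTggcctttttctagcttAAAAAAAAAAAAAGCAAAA
NEAT1 3′ end: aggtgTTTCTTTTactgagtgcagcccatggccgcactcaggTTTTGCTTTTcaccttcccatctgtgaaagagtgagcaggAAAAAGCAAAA
The second U-rich stretch and the end of the A-rich tract read nearly alike in both RNAs, while the bases between them do not.

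NORAD is known for repeated Pumilio words, written as TGTANATA with N for any base, and 3 places where 2 words stand 1 base apart are shown with the words in capitals. They lie on the minus strand at chr20:36049495-36049527, chr20:36048298-36048330 and chr20:36047662-36047694.
NORAD pair 1: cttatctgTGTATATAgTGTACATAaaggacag
NORAD pair 2: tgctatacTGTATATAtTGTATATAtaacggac
NORAD pair 3: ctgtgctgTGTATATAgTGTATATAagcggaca
On the transcript strand the annotated exons of NORAD, 5401 bases, held 15 such words, or 2.78 per kb. Of 5624 lncRNA genes with at least 2000 exonic bases, 31.7% held any and 0.0711% held as many per kb, with a mean of 0.107 per kb. Among the other members JPX held 8 words, FTX 10, NEAT1 6, TUG1 3 and OIP5-AS1 1, and MALAT1 and MIAT held none.

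OIP5-AS1 is shown for miR-7, whose mature sequence in RefSeq (GRCh38.p14) is given first with its seed, bases 2 to 8, in capitals. The site is on the plus strand at chr15:41300573-41300599, with the word that matches the seed in capitals.
hsa-miR-7-5p: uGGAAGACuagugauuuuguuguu
OIP5-AS1 site: gaacaacaaaatcaccaatGTCTTCCa
Beyond the seed, an unbroken run of 14 bases near the start of this site pairs with the 3′ part of miR-7. OIP5-AS1 held 3 copies of the word GTCTTCC, and the runs at the other two were of 5 and 3 bases. FTX held 5 copies, MIAT 1 and JPX 1, and MALAT1, NEAT1, TUG1 and NORAD held none. The word was in 27.8% of the same lncRNA genes. OIP5-AS1 held 0.182 per kb, and 20% of those genes held at least as many per kb.

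Because TUT4 and TUT7 act on let-7 precursors, the word that matches the let-7 seed, CTACCTC, was also searched on the transcript strand. The mature let-7a sequence from RefSeq is followed by the 3 places in NEAT1, on the plus strand at chr11:65436210-65436231, chr11:65437533-65437554 and chr11:65437715-65437736.
hsa-let-7a-5p: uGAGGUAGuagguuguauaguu
NEAT1 place 1: cctcggtggacttaCTACCTCt
NEAT1 place 2: agcgaagggaagccCTACCTCa
NEAT1 place 3: tggtcttggtctgtCTACCTCg
MIAT held 2 copies, OIP5-AS1 1 and FTX 1, and the remaining 4 members held none. The word was in 21.6% of the lncRNA genes. NEAT1, with 22767 exonic bases, held 0.132 per kb, and 17.1% of those genes held at least as many per kb. A match is a description of the letters, not a measured site.

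MALAT1 (ENSG00000251562, chr11:65497688-65506516, plus strand) had the highest level of the 8 by far, in CPM and per length. It was at 8054, 7667 and 8921 CPM in WT replicates 1 to 3 and at 3701, 3783 and 3828 CPM in the libraries labelled ΔTUT4/7. The groups did not overlap, and the 3 libraries labelled ΔTUT4/7 lay much closer together than the 3 WT libraries. The means were 8214 ± 642 and 3771 ± 64.8 CPM, a log2 fold change of -1.12 ± 0.05 (SE), so that 45.9% of the WT level was left. The transcript took between 0.358% and 0.915% of all counts in a library and by CPM, which also grows with length, it ranked 2 among the lncRNAs in both groups, after XIST.

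NEAT1 (ENSG00000245532, chr11:65422774-65445540, plus strand) changed most of the 8. It was at 1004, 742 and 819.5 CPM in WT replicates 1 to 3 and at 244, 235 and 266 CPM in the libraries labelled ΔTUT4/7. The lowest WT library was well above the highest of the other group, and WT replicate 1 stood above the other two WT libraries. The means were 855 ± 135 and 248 ± 16.2 CPM, and the log2 fold change was -1.78 ± 0.13. By mean CPM NEAT1 ranked 5 among the lncRNAs in WT and 14 in the libraries labelled ΔTUT4/7. The MALAT1 to NEAT1 count ratio was 9.75 ± 1.52 in WT and 15.2 ± 0.87 in the other group, with no overlap between 8.02 to 10.9 and 14.4 to 16.1. The short and the long NEAT1 forms share their 5′ end and were counted as 1 gene.

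The other two nuclear lncRNAs did not separate the groups. FTX (ENSG00000230590, chrX:73940435-74293574, minus strand) was at 203, 228 and 196 CPM in WT and at 187, 207 and 196 CPM in the libraries labelled ΔTUT4/7. The groups overlapped, and the log2 fold change was -0.09 ± 0.06. MIAT (ENSG00000225783, chr22:26646411-26676475, plus strand) was at 4.89, 5.65 and 6.10 CPM in WT and at 4.27, 4.43 and 6.03 CPM in the other group, a log2 fold change of -0.20 ± 0.16. One library labelled ΔTUT4/7 lay inside the WT range. MIAT went against the description of these genes as abundant: it ranked 767 among lncRNAs in WT and 732 in the other group, with 86 to 187 counts a library.

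Both cytoplasmic lncRNAs were lower in every library labelled ΔTUT4/7. NORAD (ENSG00000260032, chr20:36045618-36051018, minus strand) was at 506, 512 and 528 CPM in WT and at 338, 372 and 352 CPM in the other group, with means of 515 ± 11.1 and 354 ± 17.2 CPM. Its log2 fold change was -0.54 ± 0.04, and the gap between the groups was several times the spread within them. OIP5-AS1 (ENSG00000247556, chr15:41283990-41309737, plus strand) was at 217, 223 and 223 CPM in WT and at 105, 106 and 111 CPM in the other group, the tightest values of the 8. The means were 221 ± 3.40 and 107 ± 3.07 CPM, and the log2 fold change was -1.04 ± 0.04, close to that of MALAT1. The 2 cytoplasmic RNAs did not move in step: NORAD exceeded OIP5-AS1 by 1.22 ± 0.02 on the log2 CPM scale in WT and by 1.72 ± 0.08 in the other group.

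TUG1 (ENSG00000253352, chr22:30969245-30979395, plus strand), which the table types as protein-coding, was at 364, 385 and 370 CPM in WT and at 297, 289 and 316 CPM in the libraries labelled ΔTUT4/7. The groups were apart, and the log2 fold change was -0.31 ± 0.05. JPX (ENSG00000225470, chrX:73944182-74070408, plus strand) was at 136, 141 and 149 CPM in WT and at 131, 123 and 130 CPM in the other group. The log2 fold change was -0.15 ± 0.05, and the gap between the groups was no larger than the SD in WT.

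**Figure D1:**
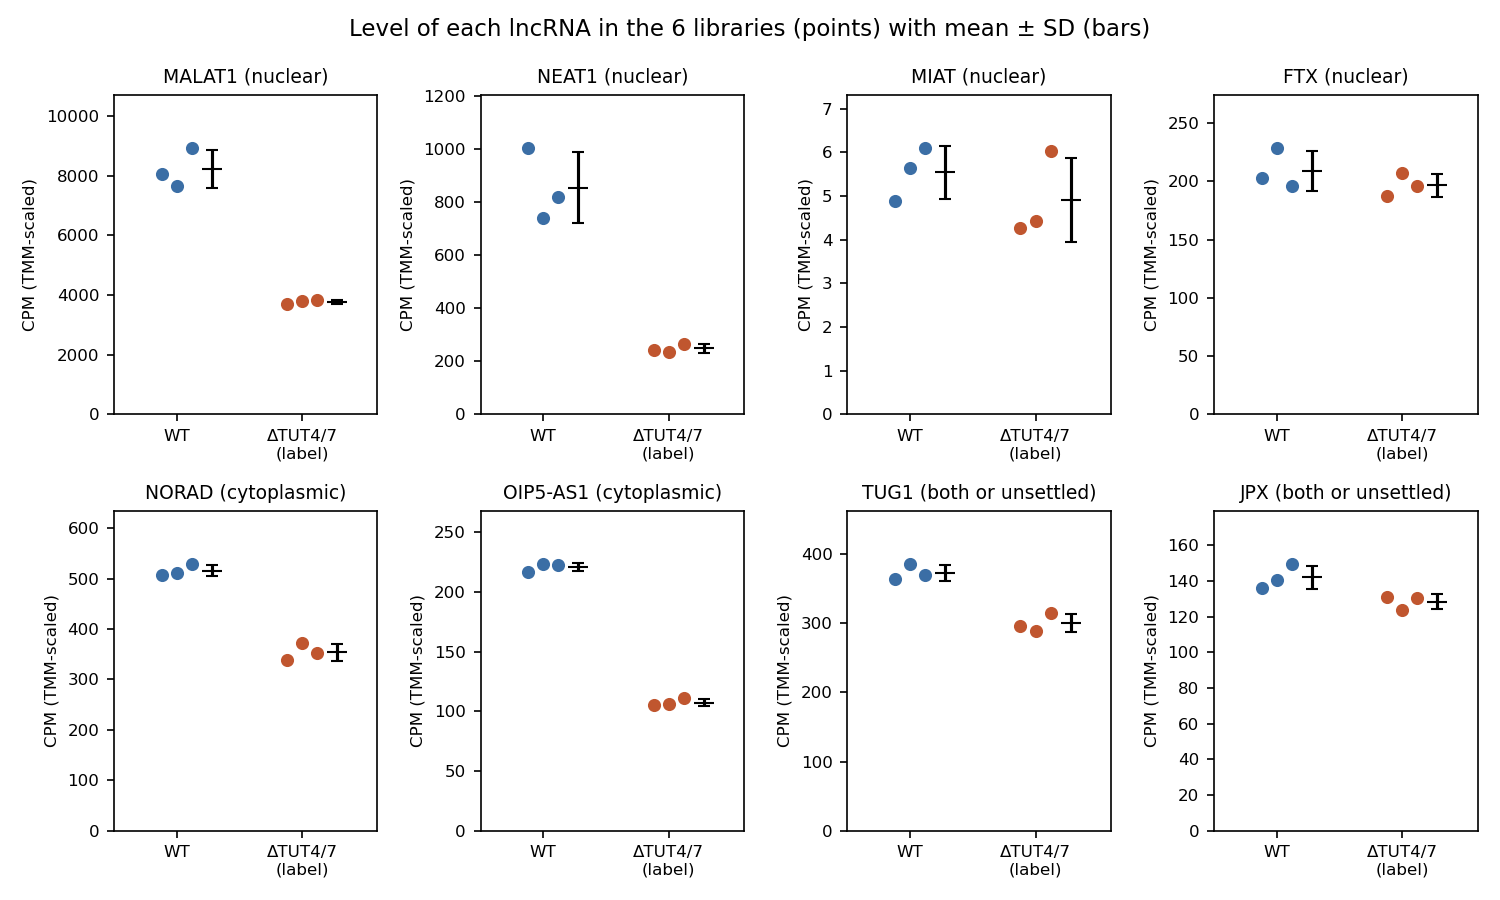
Level of each of the 8 lncRNAs in CPM (linear axes from 0), 1 point a library, WT left and libraries labelled ΔTUT4/7 right, with mean ± SD bars. MALAT1, NEAT1, NORAD and OIP5-AS1 show a wide gap between the groups, TUG1 and JPX a narrow one, and MIAT and FTX overlap.

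All 8 fitted log2 fold changes were negative, with a median of -0.43. In edgeR's quasi-likelihood fit 6 of the 8 passed an FDR of 0.05, all of them lower, and the same 6 had groups that did not overlap. Nothing can be read from these counts, because the genes were chosen with the contrast known and because the contrast was broad. Of all tested genes 57.7% passed the FDR, 29% lower and 28.6% higher, and 62.7% had groups that did not overlap. MALAT1, NEAT1 and OIP5-AS1 were lower by 2-fold or more, as were 12.4% of all tested genes. Among the 1622 lncRNA genes averaging at least 50 counts, 40.4% passed the FDR lower and the median log2 fold change was -0.20, against -0.02 for all tested genes. Of those lncRNA genes 4.38% had a lower log2 fold change than NEAT1, 13.8% than MALAT1, 15.4% than OIP5-AS1, 32.4% than NORAD, 43.6% than TUG1, 50.1% than MIAT, 52.7% than JPX and 55.9% than FTX. Among the 5 lncRNAs with the highest mean CPM, XIST, MALAT1 and NEAT1 among them, the other two had log2 fold changes of -0.92 ± 0.04 (AL035425.3) and 0.22 ± 0.22 (AL355075.4).

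The comparison of nuclear with cytoplasmic lncRNAs showed no common difference between the classes. The mean log2 CPM of the 4 nuclear members was 8.23 ± 0.03 in WT and 7.44 ± 0.10 in the libraries labelled ΔTUT4/7, a difference of -0.79. For the 2 cytoplasmic members it was 8.40 ± 0.02 and 7.61 ± 0.04, also a difference of -0.79. Nuclear minus cytoplasmic was -0.14, -0.20 and -0.16 in the WT libraries and -0.19, -0.23 and -0.08 in the others, so the ranges overlapped and the difference between the groups was 0.00. This value is a mean over unlike members, since the nuclear class ran from -1.78 for NEAT1 to -0.09 for FTX and the cytoplasmic one from -1.04 to -0.54. It depended on which genes were put in the class: without MALAT1 the difference was 0.11, with TUG1 and JPX counted as nuclear it was 0.19, and without MALAT1 and NEAT1, an alternative added after seeing the data, it was 0.66. The MALAT1 to NORAD count ratio was 15.9 ± 0.96 in WT and 10.7 ± 0.44 in the other group.

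Set per length, as CPM per kb of merged annotated exons, MALAT1 stood at 930 ± 72.7 in WT and NORAD followed at 95.4 ± 2.06. NEAT1, at 37.6 ± 5.92 CPM per kb, and TUG1, at 36.8 ± 1.10, did not differ beyond their spread in WT. Below them came OIP5-AS1 at 13.4 ± 0.21, JPX at 6.29 ± 0.29, FTX at 4.95 ± 0.41 and MIAT at 0.349 ± 0.039 CPM per kb. In the libraries labelled ΔTUT4/7 the level of MALAT1 was 427 ± 7.34 CPM per kb and that of NORAD 65.5 ± 3.19. NEAT1, at 10.9 ± 0.71 CPM per kb, had dropped below TUG1, at 29.6 ± 1.34, by a ratio of 2.71. OIP5-AS1 at 6.51 ± 0.19, JPX at 5.68 ± 0.19 and FTX at 4.66 ± 0.24 CPM per kb had come close together, each still apart from the next, and MIAT was at 0.309 ± 0.061. With the longest annotated transcript as the length, an alternative added after seeing the data, MALAT1 and NORAD stayed highest and MIAT lowest. NEAT1 then ranked 5 in WT, after OIP5-AS1, and 7 in the other group. The order of JPX and FTX reversed, with FTX above JPX by a ratio of 1.16 in WT and 1.21 in the other group.

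**Figure D2:**
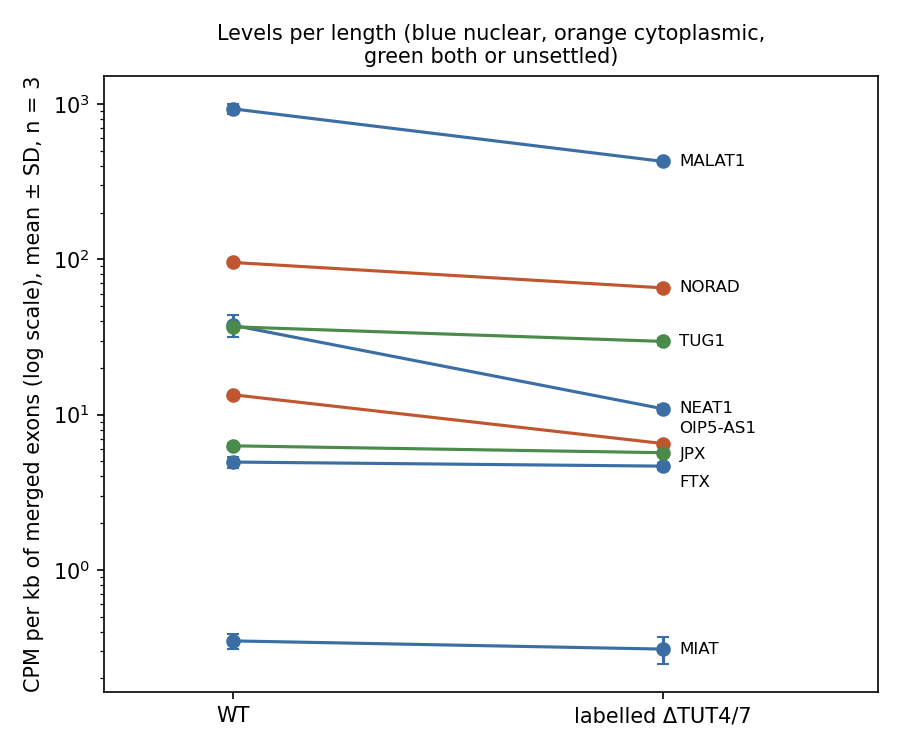
Level per length (CPM per kb of merged exons, log axis, mean ± SD, n = 3) of the 8 lncRNAs in WT and in the libraries labelled ΔTUT4/7, coloured by class. The line of NEAT1 starts beside that of TUG1, at 37.6 and 36.8, and ends below it, at 10.9 and 29.6.

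MALAT1 and NEAT1 lie side by side on chromosome 11, and their neighbours went both ways. Of 64 other genes within 1 Mb of MALAT1 averaging at least 50 counts, 10 passed the FDR lower and 37 higher. Their median log2 fold change was 0.36, against 0.06 over all 15575 tested genes averaging at least 50 counts. Of all tested genes, a set that also holds genes with fewer counts, 29% passed lower and 28.6% higher. A separate fit of the 15575 genes alone called 5571 lower and 5535 higher. Only 2 of the 64 neighbours had a lower fold change than MALAT1. These were NEAT1 and CDC42BPG, a kinase gene, at 5.26 ± 0.081 CPM in WT and 0.588 ± 0.152 CPM in the other group (-3.12 ± 0.22, edgeR adjusted p = 9.82e-11). The highest were CCDC85B, at 3.26 ± 0.847 CPM in WT and 7.91 ± 0.873 CPM in the other group (edgeR adjusted p = 1.53e-06) and ARL2, a small GTPase gene, at 1.24 ± 0.08 (edgeR adjusted p = 1.89e-11). Around NEAT1 the median over 61 genes was also 0.36, the window being largely that of MALAT1. The 31 genes around NORAD had a median of 0.12 and the 38 around OIP5-AS1 a median of 0.07, beside the same 0.06. Around NORAD 5 genes and around OIP5-AS1 4 genes were below the lncRNA itself. For TUG1, MIAT, JPX and FTX the lncRNA differed from the median of its neighbours by at most 0.20, the medians being -0.18 over 32 genes, -0.40 over 10, -0.08 over 13 and 0.00 over 14.

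**Figure D3:**
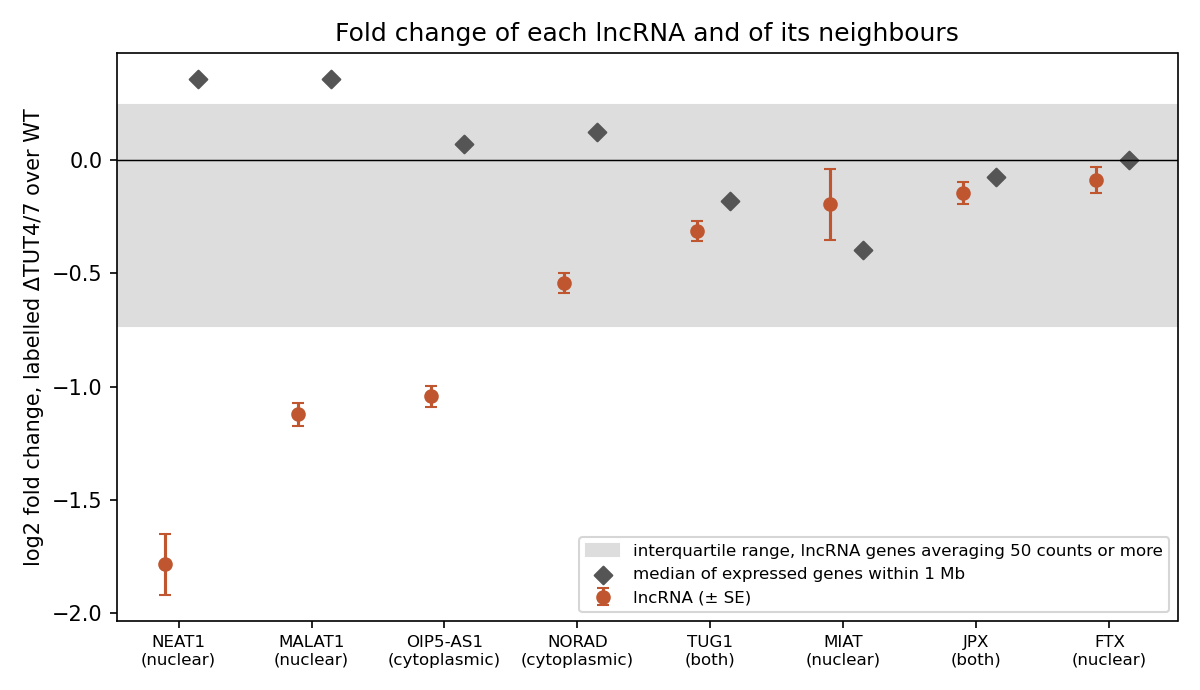
Log2 fold change (± SE) of each lncRNA, libraries labelled ΔTUT4/7 over WT, beside the median of expressed genes within 1 Mb (diamonds) and the interquartile range of lncRNA genes averaging at least 50 counts, -0.73 to 0.24 (grey band). NEAT1, MALAT1 and OIP5-AS1 lie below the band while the medians around them are above 0. Over all tested genes averaging at least 50 counts the median was 0.06.

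The spans of some members, introns included, share bases with other genes. The strand setting of the counting is not given in the sources used here. JPX and FTX share 126227 bases of span on opposite strands, which holds all of JPX. Their merged exons cover only 22568 bases for JPX and 42249 for FTX. Without strand, reads could be confused only where exons of both overlap, and that overlap was not computed. MIAT shares 3729 bases of span with MIATNB on the same strand, whose log2 fold change was -0.87 ± 0.16 (edgeR adjusted p = 0.00015). How the counting model assigned reads from the shared part was not checked. OIP5-AS1 shares 465 bases with OIP5 on the other strand (0.15 ± 0.11, edgeR adjusted p = 0.238) and most of its span with AC087721.2 (-0.79 ± 0.46, edgeR adjusted p = 0.167), which had a mean of only 25.5 counts. A small lncRNA inside FTX, Z83843.1, had a log2 fold change of -0.08 ± 0.09 (edgeR adjusted p = 0.509). The other overlapping genes of JPX and FTX, mostly pseudogenes, had mean counts of 4.83 to 53.2 or were not tested, and none passed the FDR. MALAT1, NEAT1, TUG1 and NORAD overlap no other gene of the table.

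The lncRNAs whose pattern over the 6 libraries was most like that of a member were ranked by the root mean square difference of mean-centred log2 CPM, over 1615 lncRNAs averaging at least 50 counts. For MALAT1 these were LINC00342 (0.0499), AL021368.2 (0.0656) and TPT1-AS1 (0.0738), with log2 fold changes of -1.14 and -1.13 for the first pair, and TPT1-AS1 at 33.6 CPM in WT and 16.7 CPM in the other group. For NEAT1 they were GABPB1-AS1 (0.107), LINC02348 (0.119) and LINC01703 (0.132), with log2 fold changes of -1.85, -1.76 and -1.75. For NORAD they were RAB30-DT (0.0463), PSMA3-AS1 (0.0486) and CKMT2-AS1 (0.0499), with log2 fold changes of -0.50, -0.50 and -0.54. With 6 libraries in a pair of groups the measure mostly follows the group difference. LINC00342 was at 129 CPM in WT and at 58.3 CPM in the other group.

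Genes for the proteins that build paraspeckles with NEAT1 were mostly higher. This list and those that follow were chosen with earlier results of these data known, so their counts are a description. Of 20 tested genes for paraspeckle proteins 16 were higher and 2 lower, with a median log2 fold change of 0.35. The median was 0.08 for protein-coding genes averaging at least 50 counts and -0.02 for all tested genes. Of all tested genes 28.6% passed the FDR higher and 29% lower. SFPQ, which the long NEAT1 form needs for its stability, was at 567 ± 23.6 CPM in WT and 828 ± 33.6 CPM in the libraries labelled ΔTUT4/7 (0.55 ± 0.05, edgeR adjusted p = 1.22e-09). HNRNPM (0.89 ± 0.04, edgeR adjusted p = 2.09e-13) and SMARCC1, a chromatin remodelling subunit (0.65 ± 0.04, edgeR adjusted p = 2.31e-11), had the smallest p of those higher. RBM14 rose by 0.69 ± 0.05 (edgeR adjusted p = 1.03e-10). The 2 that fell were PSPC1, a core paraspeckle protein, by 0.56 ± 0.06 (edgeR adjusted p = 3.16e-08), and EWSR1 by 0.18 ± 0.04 (edgeR adjusted p = 0.00184). NONO was higher by 0.20 ± 0.04 (edgeR adjusted p = 0.000486), but did not pass with library size alone, at 0.08, or with upper-quartile factors, at 0.10. With library size alone 13 of the 20 were higher and 4 lower, and with upper-quartile factors 14 and 4.

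Nuclear speckles are where MALAT1 collects. Of 16 genes for speckle proteins 14 passed the FDR higher and none lower, with a median of 0.32. Of all tested genes 28.6% passed higher and 29% lower. The scaffold proteins SON and SRRM2 had log2 fold changes of 0.22 ± 0.05 (edgeR adjusted p = 0.000335) and 0.34 ± 0.05 (edgeR adjusted p = 9.44e-06), and SON did not pass with library size alone, at 0.11. The smallest p belonged to RNPS1, an activator of splicing (0.86 ± 0.05, edgeR adjusted p = 3.45e-12), and to the SR protein SRSF2 (0.71 ± 0.05, edgeR adjusted p = 4.81e-10). With library size alone 11 of the 16 were higher, with a median of 0.20.

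Of 15 genes that make the 3′ ends of MALAT1 and NEAT1 or bind them, 13 were higher and 1 lower, with a median of 0.67. For this list and the decay list below, the shares over all tested genes were 28.6% higher and 29% lower. ELAC2, the RNase Z that trims the tRNA-like piece, rose by 0.72 ± 0.05 (edgeR adjusted p = 4.72e-11), and the RNase P protein gene POP7 by 1.04 ± 0.07 (edgeR adjusted p = 1.16e-10). METTL16, which binds the MALAT1 triple helix, rose by 0.58 ± 0.05 (edgeR adjusted p = 1.05e-09). RPP25, another RNase P protein gene, fell from 39.8 ± 4.86 to 3.90 ± 0.354 CPM (-3.33 ± 0.11, edgeR adjusted p = 5.69e-16). The RNase P RNA gene RPPH1 had a log2 fold change of -0.32 ± 0.23 (edgeR adjusted p = 0.305). Of 19 genes for nuclear RNA decay, 13 were higher and 3 lower, with a median of 0.25. With library size alone 9 were higher and 3 lower, with a median of 0.14, and with upper-quartile factors 10 were higher and 3 lower, with a median of 0.15. The exosome nuclease DIS3 rose by 0.57 ± 0.04 (edgeR adjusted p = 3.76e-10) and ZCCHC8, of the NEXT complex that leads RNAs to the exosome, by 0.61 ± 0.05 (edgeR adjusted p = 9.22e-10). The exosome subunits EXOSC6 and EXOSC9 fell by 0.65 ± 0.06 (edgeR adjusted p = 5.57e-09) and 0.43 ± 0.06 (edgeR adjusted p = 2.02e-06).

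All 9 partner genes of NORAD and OIP5-AS1 passed the FDR, 7 higher and 2 lower, with a median of 0.49. Among all tested genes 57.7% passed, 28.6% higher and 29% lower. PUM2, a Pumilio repressor that NORAD binds, fell from 209 ± 16.3 to 164 ± 2.90 CPM (-0.35 ± 0.05, edgeR adjusted p = 5.68e-06). PRPF19 and ALYREF, which joins mRNA export, rose from 97.1 ± 1.86 to 216 ± 5.27 CPM (edgeR adjusted p = 5.51e-15) and by 0.95 ± 0.06 (edgeR adjusted p = 1.04e-11). ELAVL1, an RNA-binding protein that OIP5-AS1 binds, rose by 0.42 ± 0.04 (edgeR adjusted p = 3.62e-08). AGO2, the Argonaute that carries miR-7 and let-7, had a log2 fold change of -0.11 ± 0.04 (edgeR adjusted p = 0.0344), a call lost when any of 4 libraries was left out, with adjusted p between 0.000214 and 0.131 over all alternatives.

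NEAT1 is also a p53-responsive lncRNA, and 8 such genes were tested, NEAT1 included. Of these, 6 were lower and 1 higher, with a median log2 fold change of -1.51. Of the lncRNA genes averaging at least 50 counts 40.4% passed the FDR lower, and of all tested genes 29%. Without NEAT1, 5 of the 7 p53-responsive genes were lower. The 5 were MIR34AHG, the host of miR-34a, which fell from 75.3 ± 7.17 to 11.8 ± 1.47 CPM (-2.68 ± 0.09, edgeR adjusted p = 3.84e-14), PURPL (-1.51 ± 0.06, edgeR adjusted p = 2.17e-14), PVT1 (-1.39), TP53TG1 (-1.52) and DINOL (-4.17, at only 2.60 ± 0.364 CPM in WT). LINC-PINT (0.31 ± 0.12, edgeR adjusted p = 0.033) lost its call in 8 alternatives, and PANDAR had a log2 fold change of 0.11 ± 0.42 (edgeR adjusted p = 0.852). With library size alone 6 were lower and none higher.

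Further lncRNAs listed as nuclear or as cytoplasmic also moved both ways. Their location was set by the list and was not measured in these libraries, so the list medians are no test of location. Of 13 nuclear ones 7 were lower and 4 higher, with a median of -0.62, and with library size alone 7 were lower and 2 higher. Of the lncRNA genes averaging at least 50 counts 40.4% passed lower, and of all tested genes 29% lower and 28.6% higher. FIRRE, which shapes the nuclear X chromosome, fell by 0.90 ± 0.05 (edgeR adjusted p = 2.63e-12) and PVT1 by 1.39 ± 0.06 (edgeR adjusted p = 1.42e-13), while MIR17HG, the host of the miR-17 cluster, rose by 1.40 ± 0.18 (edgeR adjusted p = 0.00256) and NUTM2A-AS1 by 0.33 ± 0.05 (edgeR adjusted p = 1.21e-05). Of 13 cytoplasmic ones 6 were higher and 5 lower, with a median of 0.15, which was 0.04 with library size alone and 0.05 with upper-quartile factors. The lower calls were 2 without ΔTUT4/7 replicate 1 and 3 without WT replicate 2, WT replicate 3 or ΔTUT4/7 replicate 3. CYTOR rose from between 3.41 and 4.46 CPM to between 26.2 and 29.9 CPM (2.81 ± 0.11, edgeR adjusted p = 4.96e-15) and GAS5, a snoRNA host, by 0.57 ± 0.06 (edgeR adjusted p = 5.88e-07). H19 fell by 1.91 ± 0.36 (edgeR adjusted p = 0.000114) at 1.41 ± 0.239 CPM in WT, and LINC00667 had 57 counts over the WT libraries and 1 over the others, which makes a ratio of 0.0189 (exact interval for counting error alone at the 95% level, 0.000469 to 0.109).

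**Figure D4:**
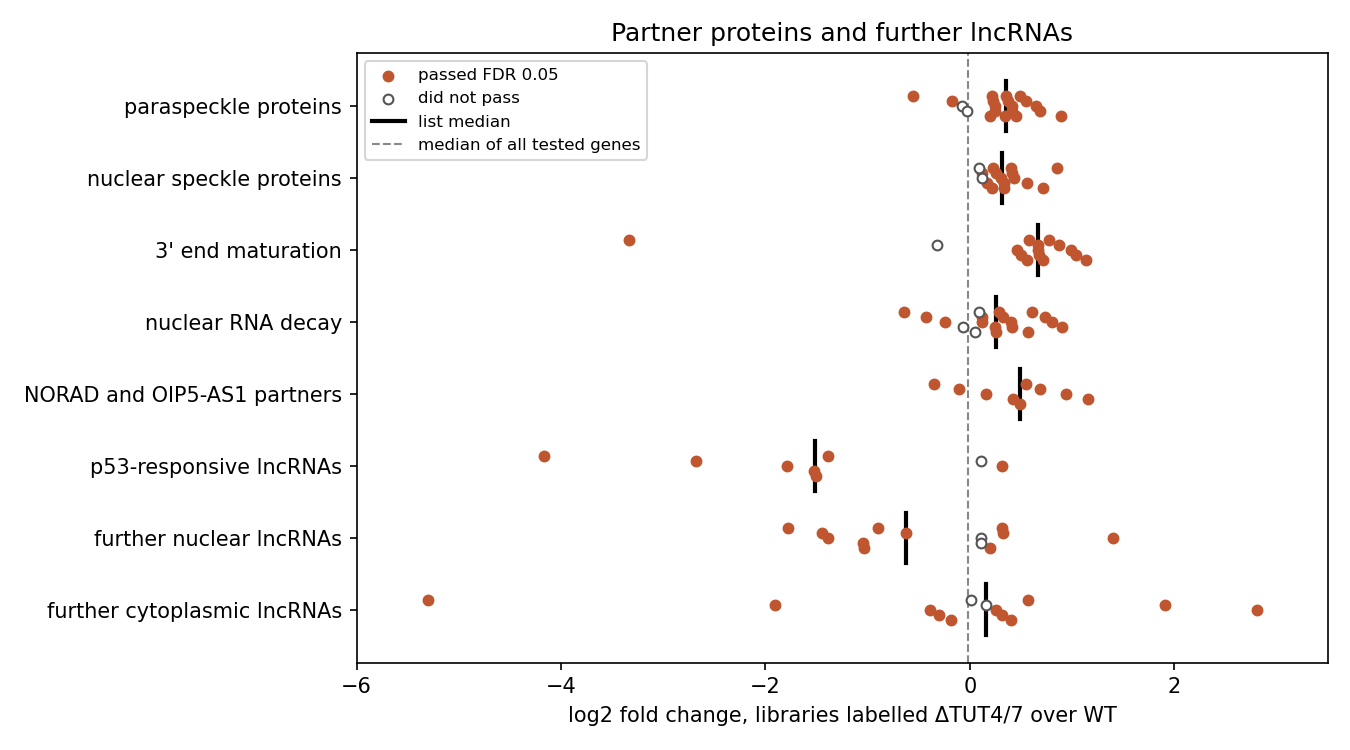
Log2 fold change of each tested gene in 8 lists, libraries labelled ΔTUT4/7 over WT, with filled points for genes past an FDR of 0.05, a bar at each list's median and a dashed line at the median of all tested genes, -0.02. The 4 lists of nuclear proteins and the partner list lie mostly to the right of the line. The p53-responsive lncRNAs, NEAT1 among them, lie mostly to the left. Protein-coding genes averaging at least 50 counts had a median of 0.08. The leftmost point, LINC00667, rests on 1 count in the libraries labelled ΔTUT4/7.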

How the data were processed

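Total RNA of 3 WT and 3 TENT3A/B knockout cultures of HEK 293T cells was sequenced after rRNA reduction. The authors aligned reads to hg38 with STAR 2.7.3a and quantified Ensembl genes in Partek Flow (version 10.0.22 in the submitters' processing notes). The deposited table holds estimated counts per gene, which need not be whole; 45.2% to 50.0% of values in a library were further than 1e-09 from a whole number. The authors' own comparison (p-value, FDR, ratio, fold change and group means) was not used here. Whether reads were counted by strand is not given in the sources used here.

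Estimated counts were rounded, genes with a largest count above 12 were kept, and TMM factors with edgeR 4.0.16 under R 4.3.3 (robust glmQLFit, glmQLFTest, group as the only term, Benjamini-Hochberg over 23952 genes) gave log2 fold changes, their SE and adjusted p-values. CPM are relative to TMM-scaled totals computed from the deposited counts. The biological coefficient of variation was 6.44%. Replicates are labelled as biological. The steps were tested on simulated data. Lengths, words and sequences came from hg38 with GENCODE release 44 exons inside each gene's span in the table, where 1852 of 2071 lncRNAs shared by symbol also shared chromosome and start.

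Named genes are the 8 members, TUT4 and TUT7, overlapping genes, the 5 lncRNAs of highest CPM, the 2 genes of smallest p in each direction of each list with any whose role is described, the 3 most alike lncRNAs and the 2 highest and 2 lowest genes near MALAT1. Some list genes are not reported here by name. Members and lists were chosen with earlier results of these data known. DESeq2 1.42.0, limma-voom (limma 3.58.1), other scalings and filters, the replicate block and each library left out were the alternatives.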

Additional observations from a re-analysis of the deposited data

How the results depend on the processing

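The log2 fold change of all 8 lncRNAs stayed negative under every alternative run. Library size alone and upper-quartile factors moved the median of all genes from -0.02 to -0.14 and -0.12, and lower calls from 50.4% of calls to 59.9% and 58.6%. With library size alone the values were -1.24 for MALAT1, -0.43 for TUG1, -0.66 for NORAD, -1.16 for OIP5-AS1, -0.26 for JPX and -0.20 for FTX. With upper-quartile factors they were -1.22, -0.41, -0.64, -1.14, -0.25 and -0.19 in the same order. With a mean count of 50 or more, TUG1 was at -0.38, NORAD at -0.61, OIP5-AS1 at -1.11 and JPX at -0.21, and the further nuclear and cytoplasmic lists had 7 calls each of 10 tested genes, against 11 of 13. The smaller number tested goes with the last change, and the other causes were not tested. With each library left out, the further cytoplasmic list had 7 to 10 calls, 7 without ΔTUT4/7 replicate 1, MALAT1 ran from -1.17 to -1.06, NEAT1 from -1.88 to -1.66 and FTX from -0.13 to -0.02. JPX did not pass the FDR without WT replicate 3 or without ΔTUT4/7 replicate 2, and FTX passed it with library size alone, with upper-quartile factors, with genes averaging at least 50 counts and without WT replicate 3. The nuclear-minus-cytoplasmic difference was 0.19 with TUG1 and JPX as nuclear, 0.11 without MALAT1 and 0.66 without MALAT1 and NEAT1. The median near MALAT1 was 0.19 within 0.5 Mb and 0.19 within 2 Mb, and near NEAT1 0.11 and 0.19. With the replicate number as a block 13678 genes passed the FDR, against 13813. Same-numbered libraries did not visibly deviate together (r of 0.0519, -0.0115 and -0.0222), and differently numbered ones ran from -0.0896 to 0.0954. With 3 libraries a group this cannot exclude a pairing by number. The block gave -1.12 for MALAT1 and -1.78 for NEAT1. MIAT, with 86 to 187 counts a library, was at -0.31 with library size alone and -0.30 with upper-quartile factors. Leaving out ΔTUT4/7 replicate 3 gave its lowest value, -0.36, and leaving out ΔTUT4/7 replicate 1 its highest, -0.10, with -0.12 for WT replicate 3.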
